A study of Mus musculus with 8 samples.

Results

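Menin-null and wild-type pancreatic islet-like endocrine cells (PILECs) were compared across all genes of a mouse whole-genome array. The comparison used 4 of the 8 arrays of the series, 2 of wild-type PILECs and 2 of menin-null PILECs, and tested 18193 genes, each read by its brightest probe set (highest mean, all 8 arrays). The other 4 arrays were of the undifferentiated mouse embryonic stem cells (mESCs) from which the PILECs were made, and they entered the choice of the probe set, the estimate of the spread and a test of whether an effect differed between the cell types. All cells were of 129S6/SvEvTac background. Wild-type PILECs came from the mESC line TC-1, and menin-null PILECs from the line 3.2N, in which Men1 had been knocked out. Each genotype was thus 1 line, and genotype cannot be told apart from other differences between these lines. The mESCs had been kept on irradiated mouse embryonic fibroblast feeders and were made feeder-free before use. Differentiation ran through embryoid bodies, a serum-free insulin-transferrin-selenium medium, expansion with N2, B27 and FGF, and a last step with nicotinamide, and it was the same for both lines. The 2 arrays of a group came from independent cultures. In bulk RNA from such mixed cultures, fewer cells of a type and less RNA per cell cannot be told apart.

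Menin is the product of the tumor suppressor gene Men1. It is a scaffold subunit of the histone methyltransferase complexes built around MLL1 and MLL2, which place trimethyl marks on lysine 4 of histone H3 at the promoters of active genes, the Hox genes among them. Inherited loss of MEN1 predisposes to tumors of endocrine tissues, including those of the pancreatic islets.

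Men1 RNA was low in every menin-null array. On the log2 scale it was 10.06 and 9.92 in wild-type PILECs and 7.95 and 8.02 in menin-null PILECs, and 9.90 and 9.97 in wild-type mESCs against 7.77 and 7.82 in menin-null mESCs. The groups did not overlap in either cell type. In PILECs the difference was -2.0 (SE 0.09), a 4.01-fold lower signal, with an adjusted p of 7.38e-05 (limma). The other Men1 probe sets read -1.9 and -0.32, and where the probes lie relative to the deleted part of the gene is not given in the sources used here. Of 18 genes listed for menin and its MLL complexes, Men1 alone fell and 0 rose. Kmt2a (MLL1) was at 9.86 and 9.86 in wild-type and 9.94 and 10.10 in menin-null PILECs, and Kmt2b (MLL2) at 9.83 and 9.77 against 9.77 and 9.97, so for both the arrays of the groups lay close together.

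The islet label was checked against islet markers. Of 7 islet hormone genes measured, 2 had a mean of 7 or more in a PILEC group, the limit set here for an expressed gene, and 0 passed the test between genotypes. Ins2, an insulin gene, was at 7.13 and 7.33 in wild-type and 7.55 and 7.19 in menin-null PILECs, where the wild-type mESC mean was 6.82. Gcg (glucagon) stayed at or below 4.95 and Iapp (islet amyloid polypeptide) at or below 4.72 in all 4 PILEC arrays. Pdx1, a pancreatic and beta cell transcription factor, was at 5.25 and 5.51 in wild-type and 5.16 and 5.57 in menin-null PILECs, under the limit of 7. Ins2 apart, these defining markers lay under that limit in both genotypes. Ins1 is not analysed here. Sst (somatostatin), which neurons also make, was clearer, at 9.30 and 8.82 in wild-type and 7.89 and 8.32 in menin-null PILECs against 6.64 in wild-type mESCs. Its arrays did not overlap, but the difference of -0.95 (SE 0.23) missed the threshold with an adjusted p of 0.0505, while under 7 alternative settings, such as the fit to PILEC arrays alone, it passed. Neurod1, shared by islet cells and neurons, was at 9.10 and 8.80 in wild-type and 8.53 and 8.83 in menin-null PILECs, no higher than the wild-type mESC mean of 9.40. Granins and prohormone processing genes, found in endocrine cells and neurons alike, stood furthest above mESCs among the lists of the panel. Their mean level was 9.95 and 9.82 in wild-type PILECs, 10.15 and 10.32 in menin-null PILECs and 7.01 and 6.90 in wild-type mESCs. The islet transcription factor genes averaged 7.44 and 7.40 in wild-type PILECs against 6.29 and 6.23 in wild-type mESCs. Among the 12 granin and processing genes, Scg2 rose from 10.66 and 10.50 to 11.70 and 11.85 and Ptprn from 8.50 and 8.47 to 8.89 and 9.09. Of 15 islet transcription factors, Onecut1 alone rose (difference 0.49, adjusted p 0.035), and 0 of 10 beta cell function genes changed. The 4 rises of the islet panel (Scg2, Ptprn, Onecut1 and the duct keratin Krt19) were all lost when any PILEC array was left out.

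Across all genes, 804 (4.42%) fell and 412 (2.26%) rose in menin-null PILECs at an adjusted p under 0.05, together 6.68% of the genes tested. These shares are the background for the gene lists that follow. Across genes, which are not replicates, the 2 arrays of a PILEC group correlated at 0.997 (wild type) and 0.996 (menin-null). The median difference over all genes was -0.01 on the log2 scale. The falls had a median of 1.45-fold and the rises of 1.53-fold, so most called changes were small. At least 4-fold changes were 13 falls and 9 rises. At the threshold the study states, 2-fold with an unadjusted p under 0.005, 99 genes (0.544%) were lower and 52 (0.286%) higher, and these counts ranged from 94 to 105 and from 40 to 63 when single arrays were left out. Of the called genes, 100 falls and 55 rises were of genes under 7 in both PILEC groups, where a fold is approximate. The count of all calls rested more on single arrays: with wild-type PILEC array 2 left out, 100 genes fell and 43 rose. Normalizing the arrays to the same quantiles once more gave 773 lower and 606 higher, which moved the share of higher calls from 33.9% to 43.9%.

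**Figure D1:**
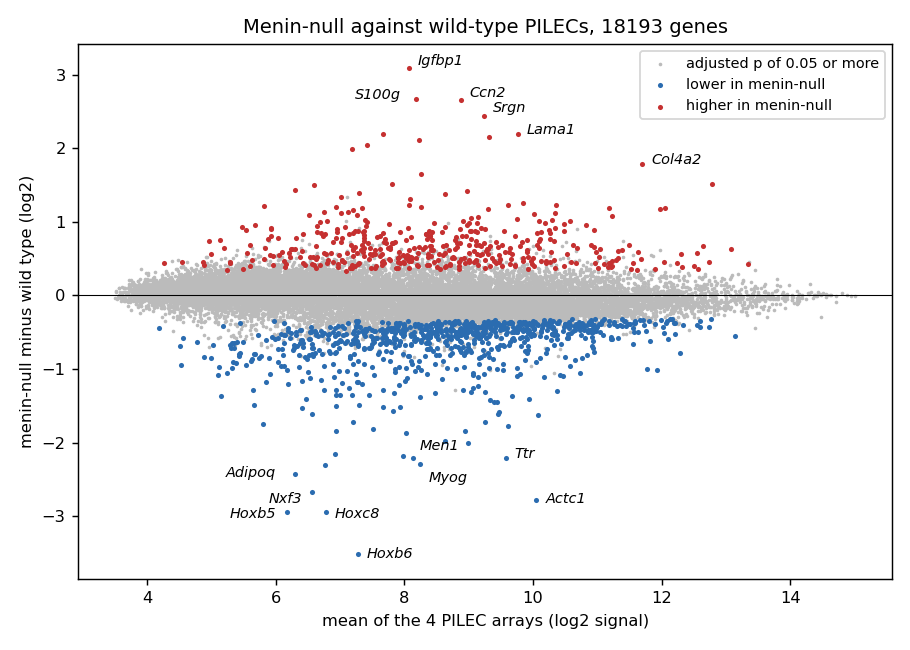
Each point is 1 of 18193 genes, with the mean log2 signal of the 4 PILEC arrays on the x axis and the menin-null minus wild-type difference (log2) on the y axis. The 804 genes that fell (blue) and 412 that rose (red) at an adjusted p under 0.05 surround a dense band of uncalled genes (grey), and the longest falls, led by Hoxb6 at -3.52, extend slightly further than the longest rise, Igfbp1 at 3.09.

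The 15 largest falls among expressed genes fell into a few groups. There were 5 transcripts of the Hox loci (Hoxb6, Hoxb5, Hoxc8, Hoxb2 and Hoxd3os1) and 4 genes of striated muscle (Actc1, Myog, Myh3 and Tnnt2). The rest were Men1, the adipocyte hormone gene Adipoq, the thyroid hormone carrier gene Ttr, the imprinted gene Nap1l5, Nxf3, a relative of the mRNA export factors, and Skor1, a transcriptional corepressor gene of the dorsal spinal cord. Hoxb6, which had the largest fall, was at 9.27 and 8.80 in wild-type and 5.45 and 5.57 in menin-null PILECs, an 11.5-fold lower signal (adjusted p 0.000131). Nxf3 was at 7.96 and 7.84 against 5.23 and 5.22, 6.40-fold lower. For Nap1l5 the wild-type arrays read 9.32 and 9.17 and the menin-null arrays 7.05 and 7.01. In all 15 genes both menin-null arrays lay below both wild-type arrays, as the choice of these genes required. Of all genes, 30.0% had menin-null PILEC arrays below the wild-type arrays and 24.7% had them above.

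The 15 largest rises opened with genes of secreted and calcium-binding proteins. Igfbp1, a binding protein for insulin-like growth factors, was at 6.69 and 6.36 in wild-type and 9.52 and 9.70 in menin-null PILECs, a difference of 3.09 (SE 0.13) or 8.51-fold (adjusted p 7.38e-05). S100g, the vitamin D-dependent calcium-binding protein calbindin-D9k, went from 6.88 and 6.83 to 9.36 and 9.69, 6.38-fold. Both were near or under the limit of 7 in wild-type PILECs and well above it in menin-null PILECs. Ccn2, a matrix-associated growth regulator, read 7.4 and 7.70 in wild-type and 10.64 and 9.77 in menin-null PILECs, 6.30-fold higher (adjusted p 0.00238). Of the rest, 5 (Srgn, Lama1, Col4a2, Tinagl1 and Col4a1) belong to the parietal endoderm and basement membrane list. Another 2 encode stomach proteins, Gkn2 (gastrokine) and Pga5 (pepsinogen): Gkn2 was at 8.15 and 8.33 in wild-type and 10.81 and 9.96 in menin-null PILECs, and Pga5 at 7.2 and 7.13 against 9.44 and 9.12. Cdhr1, a photoreceptor cadherin, and Serpina3n, a secreted protease inhibitor of reactive astrocytes and liver, rose 4.58-fold and 4.13-fold. Hpcal4 and Caln1, which encode neuronal calcium sensor proteins, rose 2.85-fold and 2.83-fold. Uba1y, a Y-linked ubiquitin-activating enzyme gene, was higher in the line 3.2N in both cell types (PILECs 3.99-fold), and its difference between lines did not pass the test of a difference between cell types (adjusted p 0.741).

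**Figure D2:**
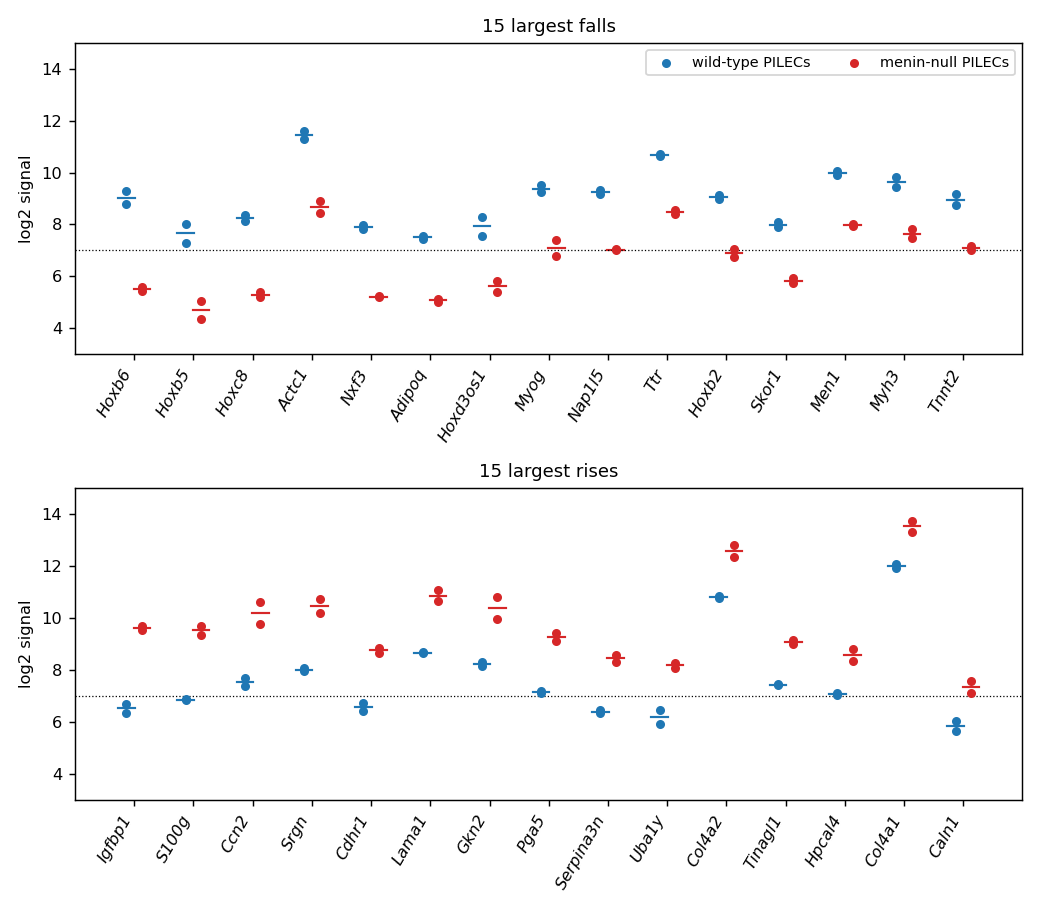
Log2 signal (y axis) of the 15 largest falls (upper panel) and 15 largest rises (lower panel) in the 4 PILEC arrays, with points for single arrays, short bars for group means, blue for wild type and red for menin-null. The dotted line marks 7, the limit for an expressed gene; 7 of the 15 fallen genes, among them Hoxb6 and Hoxc8, lie under 6 in both menin-null arrays.

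Of these 30 genes, 8 had further probe sets, 13 in all, and 12 of the 13 pointed the same way. The other Skor1 probe set read -0.08, the second one of Hoxd3os1 -0.05, and 1 of 2 further Tnnt2 sets 0.14, all 3 dimmer than the set used. The 3 further Ttr sets read between -3.16 and -3.72, larger falls than the -2.21 of the set used. With wild-type PILEC array 1 left out, 15 of the 15 falls and 13 of the 15 rises stayed called, and with wild-type array 2 left out, 14 and 13. For menin-null array 1 the numbers were 15 and 14, and for menin-null array 2 they were 14 and 14.

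The promoters of 4 of the genes that moved furthest show how different their start regions are in sequence. For Hoxb6, Hoxb5, Hoxc8 and Ccn2 no promoter is printed. Each line gives 250 bases before to 50 after the annotated start (RefSeq, GRCm38.p6), in lower case with capitals for CpG dinucleotides (CG) and for TATAAA, the letters of a TATA box core. Igfbp1 (chr11:7197537-7197836, plus strand) and S100g (chrX:162964550-162964849, minus strand) rose, and Actc1 (chr2:114052826-114053125, minus strand) and Myog (chr1:134289754-134290053, plus strand) fell.
Igfbp1: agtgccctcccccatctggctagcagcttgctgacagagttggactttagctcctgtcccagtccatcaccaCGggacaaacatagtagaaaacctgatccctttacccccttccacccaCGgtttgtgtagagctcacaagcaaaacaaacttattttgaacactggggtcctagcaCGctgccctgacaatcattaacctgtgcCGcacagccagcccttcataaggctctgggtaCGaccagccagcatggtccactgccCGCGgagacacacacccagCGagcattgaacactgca
S100g: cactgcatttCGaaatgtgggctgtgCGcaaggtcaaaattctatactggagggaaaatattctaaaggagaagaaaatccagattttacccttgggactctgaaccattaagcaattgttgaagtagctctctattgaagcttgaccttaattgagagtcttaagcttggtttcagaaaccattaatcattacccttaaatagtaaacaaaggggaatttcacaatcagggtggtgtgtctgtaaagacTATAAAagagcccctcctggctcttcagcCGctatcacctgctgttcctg
Actc1: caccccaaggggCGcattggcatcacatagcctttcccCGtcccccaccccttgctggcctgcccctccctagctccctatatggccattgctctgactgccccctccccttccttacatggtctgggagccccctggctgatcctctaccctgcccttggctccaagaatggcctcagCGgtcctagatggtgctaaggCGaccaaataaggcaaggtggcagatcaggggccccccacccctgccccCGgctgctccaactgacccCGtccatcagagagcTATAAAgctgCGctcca
Myog: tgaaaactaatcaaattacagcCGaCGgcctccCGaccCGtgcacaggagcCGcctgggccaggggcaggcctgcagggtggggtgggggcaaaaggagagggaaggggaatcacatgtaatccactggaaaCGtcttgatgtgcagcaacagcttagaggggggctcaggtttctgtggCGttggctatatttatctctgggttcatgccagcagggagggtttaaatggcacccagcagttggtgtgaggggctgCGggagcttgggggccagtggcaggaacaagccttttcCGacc
S100g held 3 CpG and 41.0% G and C, Igfbp1 8 CpG and 54.3%, Actc1 7 CpG and 62.7%, and Myog 9 CpG and 58.3%. The median over the 14367 genes with a window was 17 CpG and 58.7%. S100g and Actc1 each had 1 match to TATAAA, searched on both strands, as had 11.5% of all windows. The match began at base 1 of the annotated transcript in S100g and at base 34 in Actc1, not upstream of the start, where a TATA box lies. The E-box CAGCTG, which reads the same on both strands and which myogenic and proneural factors can bind, matched in 0 of these 4 windows and in 18.8% of all. No account of promoter composition is given for all called genes, since windows were at hand for 77.1% of the falls and 79.9% of the rises, under the 80% set for such a check. The set of all genes, used here as the reference, had windows for 79.0%, also under that limit.

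Hox genes encode the transcription factors that set position along the body axis, and 17 of the 33 measured fell in menin-null PILECs while 0 rose. Of the 16 with a group mean of 7 or more, 11 fell. The count was 6 of 9 in HoxB, 4 of 7 in HoxC, 4 of 9 in HoxA and 3 of 8 in HoxD, against 4.42% of all genes. Within HoxB, Hoxb5 was at 8.03 and 7.28 in wild-type and 5.06 and 4.35 in menin-null PILECs, and Hoxb2 at 9.15 and 9.0 against 6.74 and 7.05. Hoxb4 was at 7.78 and 7.79 against 6.78 and 6.66, a smaller fall (-1.06). The first and seventh genes of that cluster gave no call, with Hoxb1 at 6.68 and 5.83 in wild-type and 6.10 and 6.10 in menin-null PILECs and Hoxb7 at 5.74 and 5.62 against 5.63 and 5.89. In HoxC, Hoxc8 went from 8.36 and 8.14 to 5.21 and 5.39 and Hoxc4 from 7.91 and 7.83 to 6.01 and 6.03. On the probe sets used, HoxA and HoxD genes changed less. Their largest falls were Hoxa2 (-1.08) and Hoxd10 (-1.37), both in genes under 7, and Hoxa9 (-0.77) and Hoxd9 (-0.67) were the ones called at 7 or more. For 2 genes another probe set, dimmer over all 8 arrays but brighter in wild-type PILECs, read a much larger fall. These sets gave -2.90 for Hoxa9 and -3.52 for Hoxb3, where the sets used gave -0.77 and -0.97. Their wild-type PILEC means were 8.25 and 8.74, against 7.99 and 7.97 for the sets used. The called fall of Hoxa10 (-0.63, levels near 5) became 0.19 on the probe set left when sets that may bind several transcripts were dropped. The 16 uncalled Hox genes ran from -0.74 to 0.08. Mean levels over the HoxB genes were 7.66 and 7.32 in wild-type and 6.09 and 6.06 in menin-null PILECs, and the latter lay near the 5.77 and 5.89 of wild-type mESCs. When single PILEC arrays were left out, 9 (wild-type array 1), 11 (wild-type array 2), 14 (menin-null array 1) and 12 (menin-null array 2) of the 17 Hox falls stayed called.

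Hox proteins act with cofactors of the Meis and Pbx families and are switched on by retinoic acid during development. Of 8 cofactor genes, Meis1 alone fell, from 10.85 and 10.59 to 9.56 and 9.67, and 0 rose. Of 20 genes of the retinoid pathway, 4 fell and 1 rose. The cellular retinoic acid-binding proteins Crabp1 and Crabp2 fell 2.74-fold and 1.87-fold, and the receptors Rarb and Rara fell 2.0-fold and 1.49-fold. Crabp1 read 10.23 and 10.10 in wild-type and 8.80 and 8.62 in menin-null PILECs. The riser was Cyp26a1, which encodes the enzyme that clears retinoic acid, at 6.55 and 6.59 against 7.2 and 7.10. Leaving out wild-type array 1 or 2 kept 2 of the 5 cofactor and retinoid falls, and leaving out menin-null array 1 or 2 kept 4 or 3. The rise of Cyp26a1 was lost in each of these fits.

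Genes of the contractile apparatus of striated muscle made up the next group among the largest falls. Of 35 sarcomere and striated muscle genes, 19 (54.3%) fell and 0 rose, and the median of the list was -0.78 against -0.01 for all genes. With probe sets that may bind several transcripts left out, 10 of the 19 stayed called, where a gene left with no probe set counted as not called. Actc1 (cardiac alpha actin) was at 11.29 and 11.60 in wild-type and 8.90 and 8.43 in menin-null PILECs, 6.86-fold lower (adjusted p 0.000719). Myh3 (embryonic myosin heavy chain) was at 9.43 and 9.83 against 7.82 and 7.47, and Acta1 (skeletal alpha actin) at 10.70 and 11.04 against 9.66 and 8.86. The troponins Tnnt2, Tnni1, Tnnc1, Tnnt1, Tnnc2 and Tnnt3, the myosin light chains Myl4, Myl1 and Mylpf, and the giant spring protein Ttn fell as well, from -1.86 for Tnnt2 to -0.78 for Tnnt3. Genes of slow, fast, cardiac and embryonic fibres were thus all among the falls. For Myl4 the dimmer of its probe sets read 0.11, and for Tnnt2 the set left after dropping those that may bind several transcripts read 0.14. Averaged over the 35 genes, the level was 7.73 and 7.93 in wild-type and 7.15 and 6.88 in menin-null PILECs, against 6.92 and 6.92 in wild-type mESCs.

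Upstream of these genes, 4 of 21 myogenic transcription factor genes fell and 0 rose. Myog (myogenin), which drives the fusion of myoblasts and their terminal differentiation, was at 9.24 and 9.52 in wild-type and 7.4 and 6.78 in menin-null PILECs, 4.88-fold lower (adjusted p 0.00197). Six4, Eya4 and Eya1, partners in the control of early myogenic genes, fell 1.55-fold, 1.49-fold and 1.40-fold. The Eya4 probe set used was under 7 in both groups, and another, brighter over the PILEC arrays, went from a mean of 7.45 to 5.34, a difference of -2.12 (adjusted p 7.46e-05). The determination factors were not called: Myod1 was at 6.42 and 6.60 in wild-type and 6.34 and 6.01 in menin-null PILECs, and Myf5 was at or below 3.86 throughout. Smooth muscle genes gave 0 calls among 12, with Acta2 at 8.70 and 8.84 against 8.68 and 8.16. The 23 muscle gene falls came to 14 or 6 with wild-type array 1 or 2 left out and to 17 or 13 with menin-null array 1 or 2 left out.

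Windows were at hand for 17 of the 19 fallen sarcomere genes, and their sequence stood apart from the rest of the table. Their median observed-over-expected CpG ratio was 0.238, against 0.658 over all genes with a window. TATAAA matched in 7 of 17 (41.2%, all windows 11.5%) and CAGCTG in 8 of 17 (47.1%, all windows 18.8%). The Actc1 window printed above ends just past its TATAAA. For the called regional transcription factor genes of the nervous system, with windows for 22 of 24, the matches were 3 and 5.

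Adipocyte and connective tissue genes were also among the falls. Of 11 adipocyte genes 5 fell and 0 rose. Adipoq (adiponectin) was at 7.45 and 7.57 in wild-type and 5.14 and 5.03 in menin-null PILECs, 5.36-fold lower (adjusted p 7.38e-05). The lipid genes Fabp4, Plin2 and Lpl and the carbonic anhydrase gene Car3 fell between 2.10-fold and 2.56-fold, though the 3 dimmer Fabp4 probe sets read -1.29, 0.20 and 0.03. Pparg, the regulator of adipocyte differentiation, was at 5.71 and 5.92 against 5.27 and 5.19 and was not called. Among 24 collagens outside the basement membrane, Col14a1, Col8a2 and Col1a2 fell and 0 rose, with Col1a2 at 12.56 and 12.79 against 12.11 and 11.69. Among 26 fibroblast matrix genes, Efemp1, Aspn, Lum and Vcan fell and 0 rose. Efemp1 (fibulin 3) was at 9.58 and 10.14 in wild-type and 8.38 and 7.67 in menin-null PILECs, 3.58-fold lower. Of 20 endothelial and blood genes, the VEGF receptor gene Flt1 alone rose (1.82-fold). Leaving out wild-type array 1 or 2 kept 7 or 4 of the 12 falls of these lists, and leaving out menin-null array 1 or 2 kept 10 or 8.

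**Figure D3:**
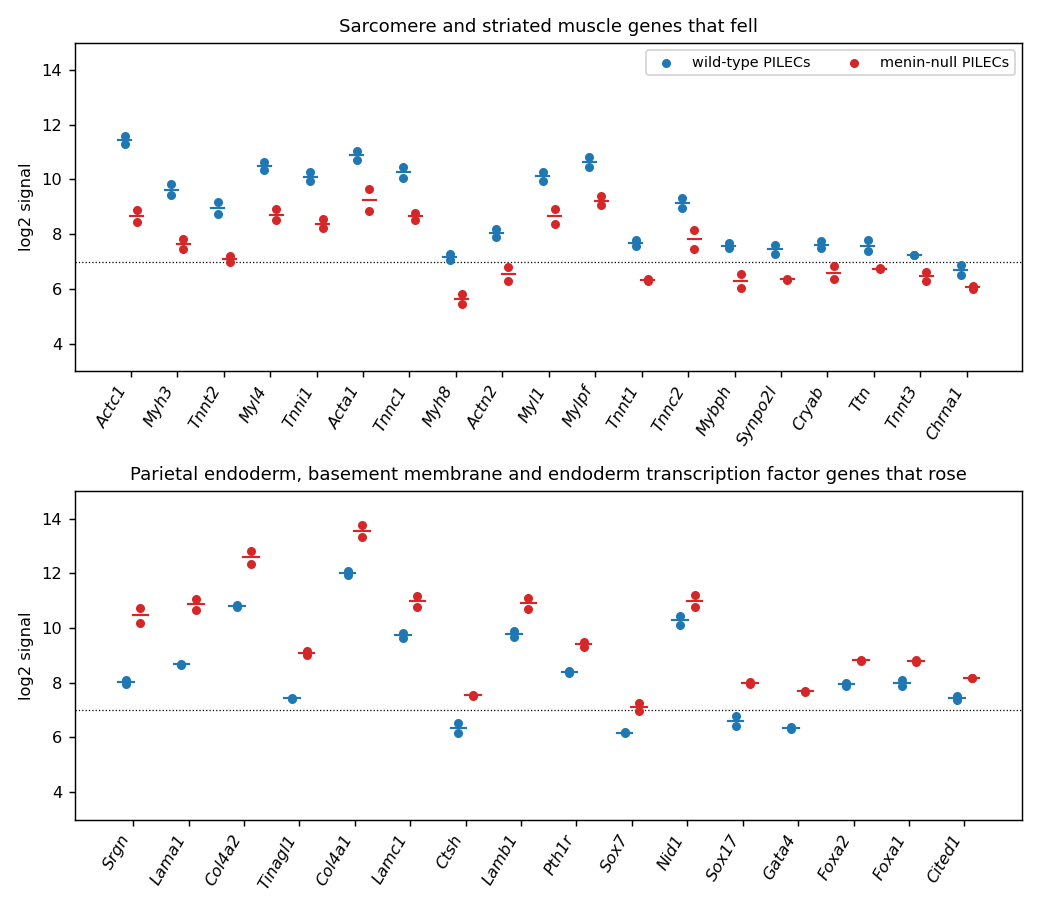
Log2 signal (y axis) in the 4 PILEC arrays of the 19 sarcomere and striated muscle genes that fell (upper panel) and of the 16 parietal endoderm, basement membrane and endoderm transcription factor genes that rose (lower panel). Points are single arrays, bars group means, blue wild type and red menin-null, and the dotted line marks 7. In every gene shown the arrays of the groups do not overlap, as in every called gene of the comparison.

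Basement membrane and endoderm genes were the counterpart among the rises. Parietal endoderm is the extraembryonic cell layer that lays down the thick basement membrane of the early embryo, made of laminin and type IV collagen. Of 22 genes listed for it, 11 rose and 0 fell, where 2.26% of all genes rose, and the median difference was 0.60. All 3 chains of the embryonic laminin rose: Lama1 from 8.65 and 8.70 to 11.07 and 10.66 (4.56-fold, adjusted p 0.000319), with Lamc1 and Lamb1 at differences of 1.23 and 1.13. Col4a2 went from 10.76 and 10.85 to 12.82 and 12.36 and Col4a1 from 11.94 and 12.10 to 13.75 and 13.31, and the second Col4a1 probe set read a larger rise (1.9). Srgn (serglycin, a secretory granule proteoglycan) was at 7.95 and 8.09 against 10.73 and 10.19, 5.43-fold higher. Tinagl1, Ctsh, Pth1r, Sox7 and the laminin-binding gene Nid1 rose between 1.61-fold and 3.14-fold. Menin-null array 1 lay above menin-null array 2 for all of the laminin, collagen and serglycin genes named here. The mean level of the list was 8.83 and 8.98 in wild-type and 9.90 and 9.56 in menin-null PILECs, and 8.91 and 8.90 in wild-type mESCs. Sparc, a matrix glycoprotein of the same cells, did not pass (13.04 and 13.23 against 13.79 and 13.39, adjusted p 0.0908).

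Transcription factors of the endoderm rose too, 6 of 14 measured, with 1 fall. Sox17 was at 6.41 and 6.77 in wild-type and 8.02 and 7.95 in menin-null PILECs (2.64-fold), and Gata4 at 6.32 and 6.39 against 7.70 and 7.68 (2.53-fold, adjusted p 0.000262). For these 2 genes a second probe set read 1.74 and 0.91. Foxa2 and Foxa1, pioneer factors of endoderm and floor plate, went from 8.0 and 7.87 to 8.78 and 8.84 and rose by 0.81. Sox7 and Cited1 completed the group, though the dimmer Sox7 probe set read 0.001. Eomes, a regulator of definitive endoderm and mesoderm that also acts in cortical progenitors, fell from 8.78 and 8.61 to 7.59 and 7.85. Genes secreted by visceral endoderm and liver did not rise with the others. Of 21, 2 reached 7, and Cubn alone rose (5.82 and 6.16 against 6.47 and 6.77), while Ttr fell 4.62-fold from 10.62 and 10.73 to 8.55 and 8.39. Afp was at 5.42 and 5.56 against 5.89 and 6.41 and Alb at or below 5.21 in all 4 arrays, under the limit of 7. When single PILEC arrays were left out, 10 (wild-type array 1), 11 (wild-type array 2), 13 (menin-null array 1) and 15 (menin-null array 2) of the 17 endoderm and basement membrane rises stayed called.

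Insulin-like growth factors act on growth and survival and are held in check by binding proteins. Of 18 genes of this system, 2 rose and 2 fell. Beside Igfbp1, the receptor gene Igf2r, whose product clears IGF2, rose from 8.48 and 8.54 to 9.46 and 9.54 (1.98-fold, adjusted p 0.00306). Igfbpl1, a binding protein-like gene, fell from 11.16 and 10.88 to 9.61 and 9.84, and Igfbp2 fell 1.35-fold. The ligands were not called, with Igf2 at 14.17 and 14.29 in wild-type and 14.48 and 14.29 in menin-null PILECs and Igf1 at 10.62 and 11.07 against 10.74 and 10.53. The CCN family of matrix proteins was split. Ccn2 and Ccn5 rose, Ccn5 by 0.42 and under 7 in both PILEC groups. Ccn3 fell from 7.41 and 7.96 to 6.20 and 6.17, and Ccn1 was at 7.85 and 8.06 against 7.82 and 7.59 and was not called. Of 20 genes listed for CCN and the YAP-TEAD pathway, 3 rose, the third being F3 (tissue factor, 1.81-fold), and 1 fell. Ccn1 and Ccn2 are both classical YAP-TEAD targets. The 5 rises of both lists came to 3 or 3 with wild-type array 1 or 2 left out and to 3 or 4 with menin-null array 1 or 2 left out.

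Neural genes moved in both directions, by kind of gene. Proneural and regional transcription factors give progenitors their identity along the neural tube and in the brain. Of 45 such genes, 23 (51.1%) fell and Six3 alone rose, with a median of -0.62. The falls included 5 genes under 7 in both PILEC groups. Skor1, expressed in the dorsal spinal cord, was at 8.11 and 7.89 in wild-type and 5.75 and 5.92 in menin-null PILECs. Neurog2, a proneural factor, was at 10.44 and 10.09 against 8.12 and 9.25, where the menin-null arrays were more than 1 log2 unit apart (adjusted p 0.0377). Zic4, Zic5 and Zic1, dorsal and cerebellar factors, fell from -1.52 to -1.02, and the second Zic4 probe set read -2.03. Otx2, which marks forebrain and midbrain, was at 10.03 and 9.80 against 8.50 and 8.70, and Gbx2 and En2, on the hindbrain side and at the boundary, fell by 1.07 and 1.09. Pou3f4, Barhl1, Ebf1, Dbx1 and Lhx2 also fell, each by more than 1 log2 unit. The riser Six3, the factor of the most anterior forebrain and the eye, went from 8.07 and 8.11 to 8.64 and 8.67. Factors of the anterior and of the posterior neural tube were thus both among the falls. Pax6 and Nkx2-1 were not called, at differences of -0.07 and 0.03. The list averaged 8.16 and 8.03 in wild-type and 7.41 and 7.56 in menin-null PILECs, and 6.07 and 6.08 in wild-type mESCs.

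Genes of mature neurons did not follow. Of 28 neuronal cytoskeleton and synapse genes, 4 rose and 0 fell, and the list averaged 10.99 and 10.85 in wild-type and 11.06 and 11.24 in menin-null PILECs, where wild-type mESCs were at 7.65 and 7.66. The risers encode synaptic vesicle proteins. Syn2 (synapsin 2) went from 9.16 and 8.85 to 10.15 and 10.31 and Syp (synaptophysin) from 9.90 and 9.27 to 10.55 and 10.64. Syt1 and Vamp2 rose by 0.59 and 0.52. The dimmer Syp probe set read 0.03. Pan-neuronal Tubb3 was at a difference of -0.09 and Map2 of 0.05, neither called. Of 115 ion channel genes, Kcnc2, Kcna6, Cacna1e and Cacng2 (3.48%, all genes 2.26%) rose and 0 fell. Their rises ran from 1.48-fold to 1.94-fold, and Kcnc2 lay under 7 in both groups.

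Oligodendrocyte lineage genes were also among the rises. Of 19, 6 (31.6%) rose and 0 fell, with a median of 0.26. The lineage factors Olig1, Olig2 and Sox10 were among them, Olig1 at 8.50 and 8.03 in wild-type and 9.70 and 9.66 in menin-null PILECs (2.67-fold, adjusted p 0.0076). Bcas1, which marks newly forming oligodendrocytes, was at 7.58 and 7.73 against 8.80 and 8.93, although its 2 dimmer probe sets read -0.02 and 0.02. Cnp rose 1.83-fold, and Gpr17, another marker of the transition, rose from 5.50 and 5.50 to 6.25 and 6.29, under 7. Bcas1 and Cnp averaged 8.60 and 9.88 in wild-type mESCs, above their wild-type PILEC means of 7.65 and 8.67. Olig1 and Gpr17 averaged 5.60 and 5.36 in wild-type mESCs, below their wild-type PILEC means. Genes of mature myelin (Mbp at -0.08, Mog at 0.09, Mag at 0.12) were not called. Cldn11 was at 9.21 and 9.64 in wild-type and 8.57 and 7.71 in menin-null PILECs, but missed the threshold (adjusted p 0.071). Of 17 astrocyte and radial glia genes, the intermediate filament gene Gfap rose from 7.41 and 7.45 to 8.64 and 8.84 (2.48-fold, adjusted p 0.00162), while Hopx and Clu fell by 0.42 and 0.36. Leaving out wild-type array 1 or 2 kept 6 or 3 of the 15 neuron, glia and ion channel rises, and leaving out menin-null array 1 or 2 kept 7 or 7. For the 23 falls of regional factors the same 4 fits kept 7, 10, 11 and 14. In the same arrays, called genes of the striated muscle, adipocyte and fibroblast matrix lists fell, the last being 4 of 26. Called genes of the parietal endoderm and endoderm factor lists rose, Eomes apart. The visceral endoderm and liver list had 1 rise and 1 fall among 21. The part of any shift in the makeup of the cultures in the neural results was not tested.

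**Figure D4:**
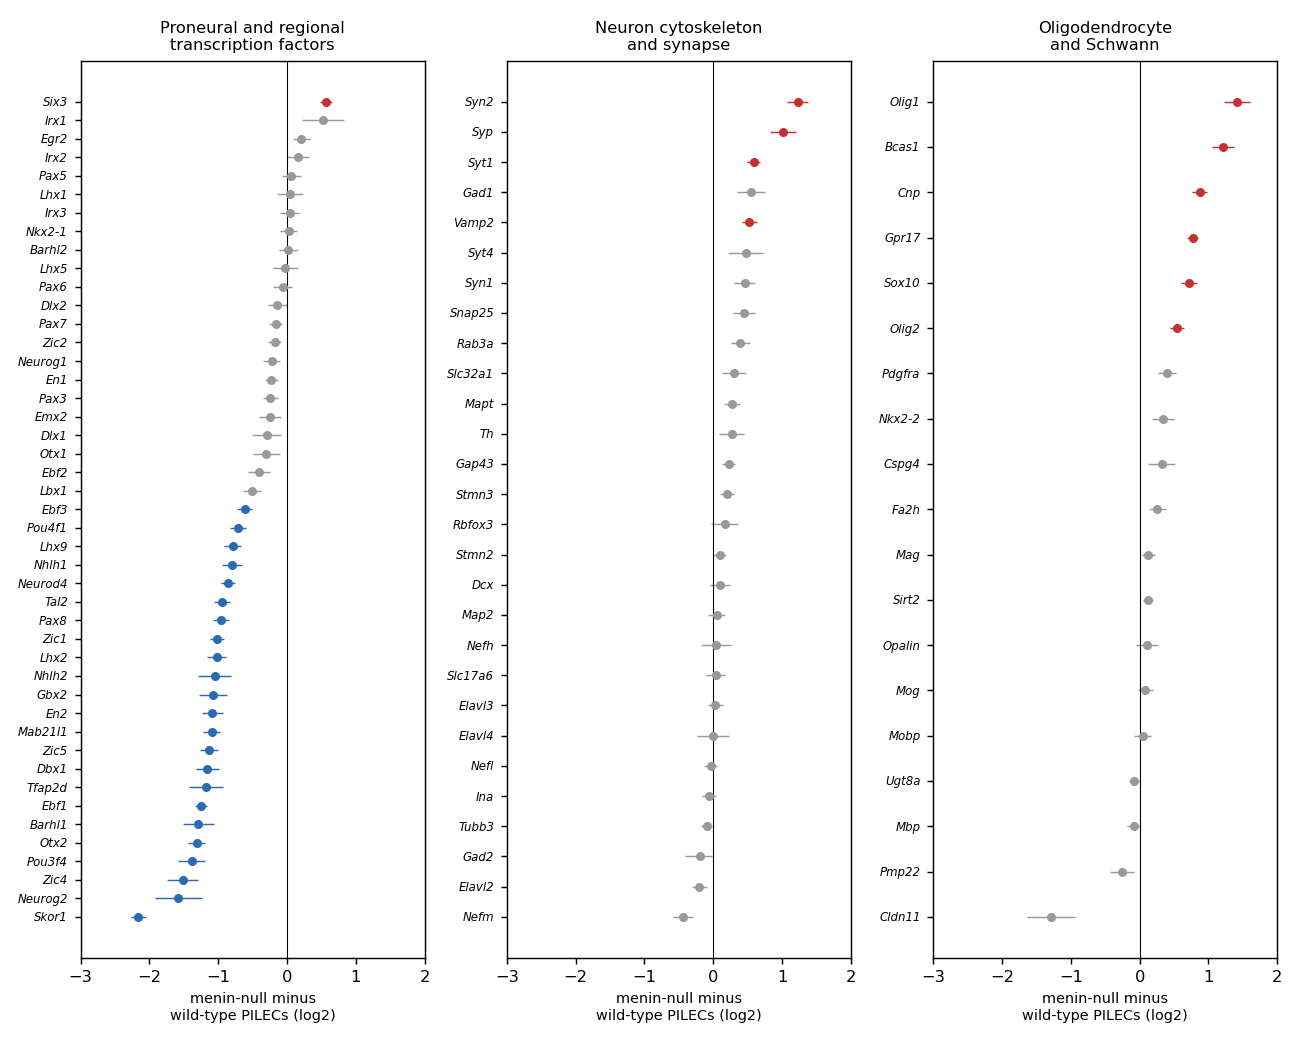
Menin-null minus wild-type difference in PILECs (x axis, log2, with bars of 1 SE) for every measured gene of 3 lists: 45 proneural and regional transcription factors, 28 neuron cytoskeleton and synapse genes and 19 oligodendrocyte and Schwann cell genes. Blue points fell, red points rose and grey points missed an adjusted p of 0.05; 23 of the transcription factors lie on the left in blue, while the 4 and 6 called genes of the other lists lie on the right in red.

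Adhesion and guidance genes tended to rise where they were called. Of 61 cadherins and protocadherins, Cdhr1, Pcdh11x, Pcdh20, Pcdh10 and Cdh6 rose and Cdh1 fell. Cdhr1 was at 6.74 and 6.40 in wild-type and 8.67 and 8.86 in menin-null PILECs, and Cdh1 (E-cadherin), the adhesion molecule of epithelia and mESCs, was at 7.25 and 7.04 against 6.63 and 6.66. Of 68 axon guidance genes, 6 rose and 2 fell, with the ephrin receptor Epha5 at 9.18 and 9.04 against 9.83 and 10.15 and the Slit receptor Robo2, under 7 in both groups, falling by 0.98. Simple epithelial genes were another small group of rises, 6 of 22 with 1 fall, Cdh1 again. The paired keratins Krt8 and Krt18 went from 7.48 and 7.15 to 8.22 and 7.95 and from 6.77 and 6.82 to 7.63 and 7.71. Krt19, Cldn6, Cldn7 and Fxyd3 rose between 1.34-fold and 2.19-fold. The 17 adhesion and epithelial rises came to 4 or 3 with wild-type array 1 or 2 left out and to 8 or 7 with menin-null array 1 or 2 left out.

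Signalling genes were called mostly as falls. Of 33 Wnt targets, ligands and antagonists, 10 (30.3%) fell and 0 rose. Rspo3 and Rspo1, secreted amplifiers of Wnt signals, went from 8.07 and 8.07 to 6.24 and 6.45 and from 7.52 and 7.21 to 5.77 and 5.75, and for Rspo3 the dimmer probe set read -0.13. The ligands Wnt8b and Wnt5a, the antagonists Dkk2, Sfrp2 and Wif1, the mediator Tcf7l2 and the targets Znrf3 and Sp5 fell as well, so that both activators and inhibitors were among the falls. The Hedgehog pathway was split by role. The ligands Shh and Ihh rose, Shh from 9.79 and 9.81 to 10.64 and 10.74 (1.85-fold, limma, adjusted p 0.0195). Ihh was under 7 in both PILEC groups. The co-receptors Cdon and Gas1 and the transcription factors Gli3 and Gli2 fell. Cdon was at 9.70 and 9.83 in wild-type and 8.48 and 8.59 in menin-null PILECs (2.35-fold lower), though its dimmer probe set read 0.08. With any single PILEC array left out, 0 of the 2 rises and 1 or 2 of the 4 falls in this pathway stayed called.

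Other pathways gave fewer calls. In the Notch list the ligands Dll3 and Dll1, the receptor Notch2 and Hes6 fell (4 of 23). In the BMP list Bmp4, the response genes Id1 and Id3 and the inhibitor Smad6 fell (4 of 24), with Bmp4 at 9.11 and 9.14 in wild-type and 8.59 and 8.28 in menin-null PILECs. The FGF list had 4 falls in 25, the feedback inhibitors Il17rd, Dusp6 and Spry1 and the ligand Fgf15, and 1 rise, Fgfbp1. Tgfbr2, Tgfbr1 and Tgfb2 fell in the TGF-beta list (3 of 19), and Fos, Egr1 and Klf2 among immediate early genes (3 of 21). The mean of Fos went from 9.94 to 8.93. Jund, whose protein binds menin, was at 11.78 and 11.69 against 11.82 and 11.76 and was not called. Of 21 interferon and antigen presentation genes, Ifitm3 alone rose (1.88-fold). When single PILEC arrays were left out, 6 (wild-type array 1), 7 (wild-type array 2), 15 (menin-null array 1) and 12 (menin-null array 2) of the 32 signalling falls stayed called.

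Residual pluripotency genes were lower in menin-null PILECs. Of 24, 12 fell and Lin28a alone rose. The falls included 5 genes under 7 in both PILEC groups. Pou5f1 (Oct4) was at 9.09 and 8.72 in wild-type and 8.03 and 8.15 in menin-null PILECs, Nanog at 9.05 and 8.83 against 7.94 and 8.07, and L1td1 at 7.36 and 7.35 against 6.46 and 6.39. The list averaged 8.13 and 7.92 in wild-type and 7.56 and 7.55 in menin-null PILECs, far below the 12.22 of both wild-type mESC arrays. Sox2, shared with neural progenitors, was at 11.79 and 11.78 against 11.76 and 11.90 and was not called. Of the oncofetal RNA-binding and Hmga genes, Igf2bp1, Igf2bp3 and Hmga2 fell and Lin28a rose (7.96 and 7.77 against 8.30 and 8.36), and of 15 germline genes Rhox5 alone rose. Leaving out wild-type array 1 or 2 kept 7 or 9 of the 15 falls of the 3 lists, and leaving out menin-null array 1 or 2 kept 10 or 10.

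Proliferation genes were lower by small amounts. Of 31 mitosis genes, 19 (61.3%) fell, and in 31 of 31 the menin-null arrays lay below the wild-type arrays, as they did in 30.0% of all genes. The largest of these falls were of Ccnb2 (cyclin B2), at 10.22 and 10.35 in wild-type and 9.58 and 9.51 in menin-null PILECs (1.67-fold), and of the mitotic kinesin gene Kif20a (1.63-fold). Of 36 DNA replication genes, 12 (33.3%) fell, led by the origin licensing factor Cdc6 at 8.01 and 8.18 against 7.2 and 7.25 (1.83-fold). All 36 differences were below 0, as were 9281 of the 18193 over all genes. The list medians were -0.44 and -0.32. Of 18 cyclin, Cdk and Cdk inhibitor genes, Rbl1, Ccnd2, Cdk4 and the Cdk inhibitor Cdkn1b, a known target of menin, fell. The dimmer Rbl1 probe sets read 0.06, 0.16 and 0.30. Cdkn1b was at 11.07 and 11.11 in wild-type and 10.55 and 10.66 in menin-null PILECs (1.40-fold, adjusted p 0.0247), and Cdkn2c at 9.46 and 9.42 against 9.09 and 8.97, just short of the threshold (adjusted p 0.0561). The p53 targets Pmaip1, Trp53inp1, Gadd45a and Sesn1 fell (4 of 17). Fits without a PILEC array or a wild-type mESC array called fewer of these small falls, while fits without a menin-null mESC array did not. The 39 falls of the 4 lists came to 3 or 1 with wild-type PILEC array 1 or 2 left out, to 13 or 10 with menin-null PILEC array 1 or 2 left out, and to 23 with wild-type mESC array 1 left out.

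Housekeeping and metabolic lists differed in their counts. Of 81 oxidative phosphorylation genes 0 were called, with a median of -0.05, and of 50 cytoplasmic ribosomal protein genes 2 fell. In the proteasome list 6 of 39 (15.4%) fell, all by 1.32-fold or less. In 33 of 39 the menin-null arrays lay below the wild-type arrays, as they did in 30.0% of all genes. Psmd13 among the falls read 0.08 once probe sets that may bind several transcripts were dropped. Of 15 heat shock genes, Cryab, Hspb1 and Hspa4 fell and Hspa1a rose, with Cryab (alpha B crystallin) at 7.48 and 7.77 in wild-type and 6.84 and 6.35 in menin-null PILECs. Among hypoxia genes outside glycolysis, Adm (adrenomedullin) fell from 9.69 and 9.69 to 8.46 and 8.29, Car12 and Higd1a fell, and Epas1, which encodes the hypoxia-inducible factor HIF-2 alpha, rose from 7.81 and 8.07 to 9.56 and 9.07. The dimmer Epas1 probe set read 0.24. In glycolysis the neuronal enolase gene Eno2 alone rose (1.75-fold). Amino acid synthesis genes Cth, Psat1 and Asns and the chaperone gene Sdf2l1 fell in the unfolded protein list, where Atf5 and Cebpb rose. Of the 19 metabolic falls, 2 stayed called with wild-type PILEC array 1 or 2 left out, and 6 or 5 with menin-null array 1 or 2 left out.

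Among chromatin genes, Ezh2, Eed and Mtf2 of Polycomb complex PRC2 fell, and Cbx7 and Ezh1 rose (5 of 26 in all). Ezh2 was at 11.27 and 11.30 in wild-type and 10.73 and 10.84 in menin-null PILECs, and Ezh1, its relative in non-dividing cells, at 8.99 and 8.89 against 9.41 and 9.30. Of 14 DNA methylation genes Uhrf1, which is coupled to replication, alone fell. Of 38 imprinted genes, 5 fell and 4 rose. The falls included Nap1l5 and the amino acid transporter gene Slc38a4 (8.59 and 8.62 against 7.10 and 6.97), and the rises Igf2r and Blcap. Meg3 was at 14.06 and 14.10 in wild-type and 14.17 and 14.12 in menin-null PILECs, and Dlk1 at 11.47 and 11.50 against 11.82 and 11.35, with overlap in Dlk1 and no call for either. Counting Men1, 5 chromatin genes fell. In each fit with a single PILEC array left out, Men1 stayed called and the call of Uhrf1 was lost. The Polycomb calls, falls and rises alike, were mostly or wholly lost in each. The 5 imprinted falls came to 2 in each of these fits, or to 3 with menin-null array 1 left out.

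**Figure D5:**
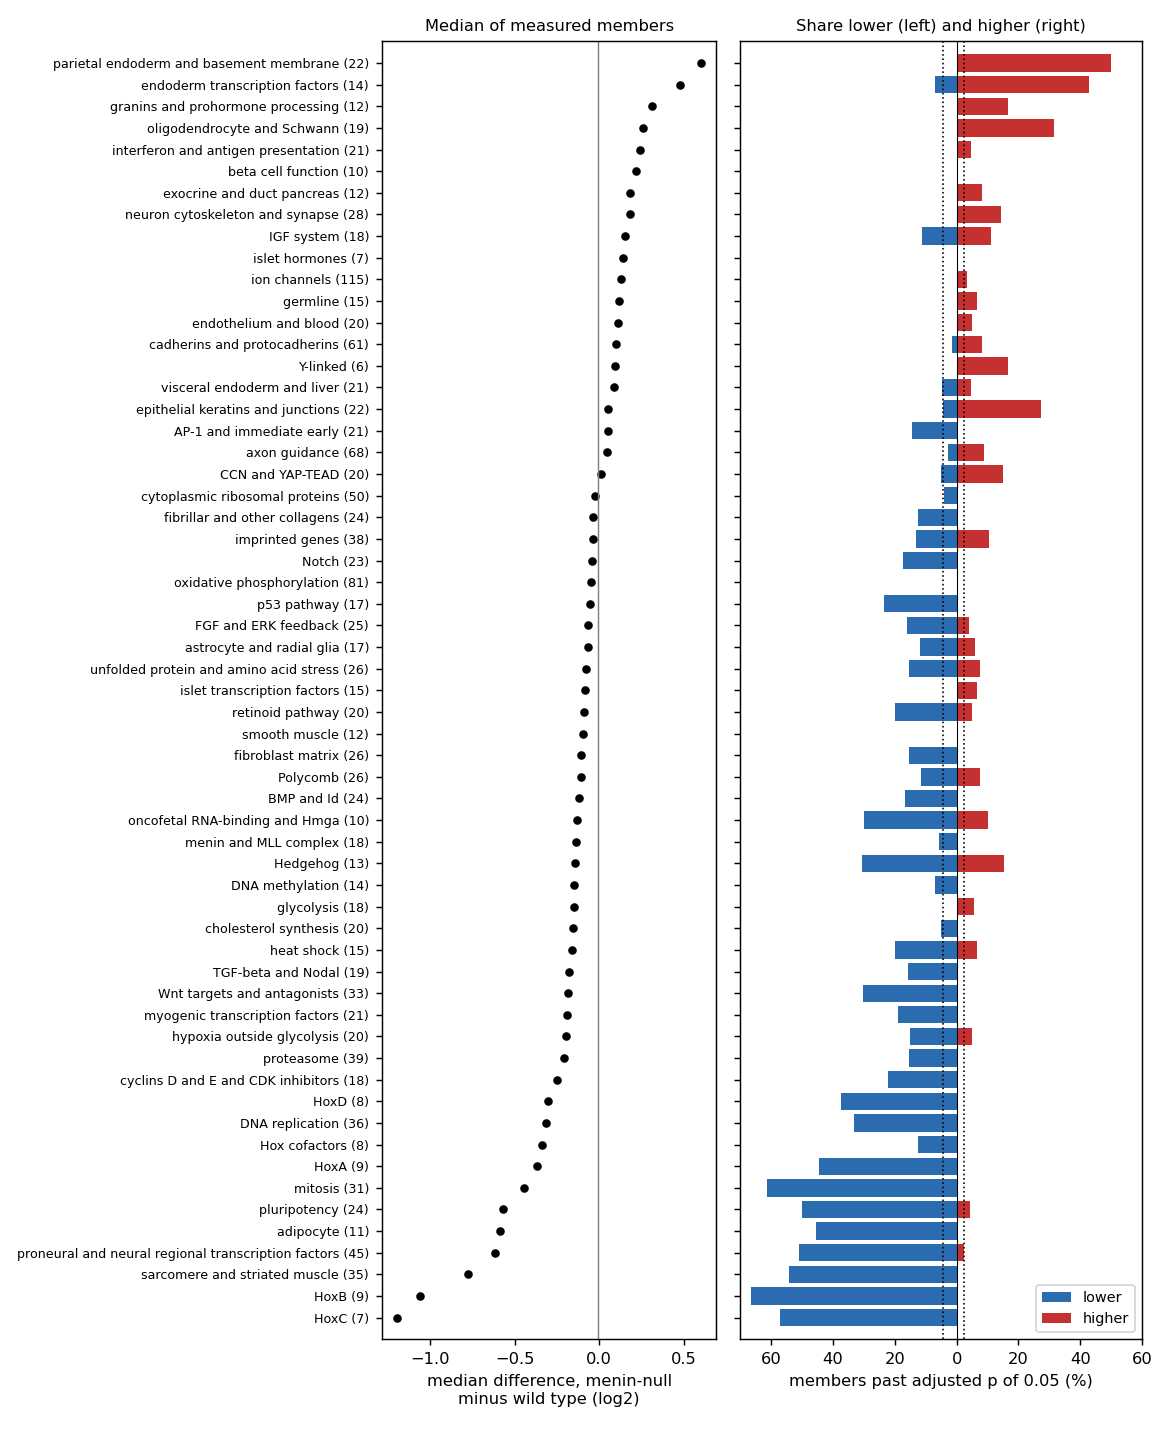
For each of 59 gene lists (number of measured genes in brackets), the left panel gives the median menin-null minus wild-type difference in PILECs (log2, grey line at the median of all genes) and the right panel the percent of members that fell (blue, to the left) or rose (red, to the right). Dotted lines mark the 4.42% and 2.26% of all genes that fell and rose; HoxC, HoxB and sarcomere genes stand at the bottom and basement membrane and endoderm transcription factor genes at the top.

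The leading genes were also read between the genotypes in mESCs. Of the 30 largest falls and rises, 27 were not called between menin-null and wild-type mESCs, where 2.36% of all genes fell and 1.29% rose. A difference between the effects in the 2 cell types was called for 26 of them and for 3.06% of all genes, but the 30 were chosen by the PILEC effect that enters this difference, so nothing is read from that count. Ccn2 had differences of opposite sign. Its menin-null minus wild-type difference was 2.66 in PILECs and -0.85 in mESCs, and these differed by 3.5 (adjusted p 0.00527). Lama1, Col4a2 and Srgn had the same pattern, each above 0 in PILECs and at -0.61, -0.56 and -0.51 in mESCs. None of these mESC differences, that of Ccn2 included, was called (limma, adjusted p from 0.0553 for Lama1 to 0.147 for Srgn). Hoxb6 was near 5.3 in mESCs of both genotypes (5.27 and 5.25), so that its PILEC difference had no counterpart there. Of the leading 30, Men1, Uba1y, Gkn2 and Caln1 did not pass this test. Of the genes that changed at least 2-fold in PILECs, 9 falls and 2 rises were also called the same way in mESCs.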

How the data were processed

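The authors hybridised labelled RNA to Affymetrix mouse genome arrays and deposited normalized log2 values (3.26 to 15.2). RMA and Partek stand in the submitters' processing notes and Microarray Analysis Suite 5.0 in the study's methods. Which of them made the values, and the annotation's build, are not given in the sources used here. Of 45101 probe sets, 34945 had 1 gene symbol in the platform annotation, and 18193 genes were tested.

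With limma 3.58.1 (R 4.3.3), 4 group means were fitted to all 8 arrays and variances moderated across genes (4 residual and 3.72 prior degrees of freedom). P-values were adjusted by the method of Benjamini and Hochberg over 18193 genes, and "rose" and "fell" mean an adjusted p under 0.05. The p-values reflect culture-to-culture spread, with 1 line per genotype. An exact permutation test of 2 arrays against 2 cannot go below 0.333. A mean of 7 was taken as expressed, which is not a measured background.

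Genes were named as Men1, the 15 largest falls and rises at 7 or more without overlap, up to 4 called members per direction and list (all called Hox genes), and fixed islet genes with Meg3 and Dlk1. Other list members were named after their values were seen. The members and the 59 lists were chosen with earlier results of these data known, so lists are described and not tested. Promoters came from RefSeq (GRCm38.p6), with 14367 of 18193 genes matched by Entrez gene identifier.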

Additional observations from a re-analysis of the deposited data

Results flagged for a closer look

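The menin-null minus wild-type difference was compared between the cell types for the 273 genes named here. In 126 of them the PILEC difference minus the mESC difference, on the log2 scale, passed the test (limma, adjusted p under 0.05 over all genes). Most of these genes were chosen by their difference in PILECs, which is part of this measure, so nothing is read from their number. Values below 0 mean that the difference was more negative in PILECs. A value can reflect the difference in either cell type.

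For the leading Hox transcripts the values were -3.50 for Hoxb6, -3.14 for Hoxb5, -2.99 for Hoxc8, -2.18 for Hoxb2 and -2.01 for Hoxd3os1. The other Hox genes gave -1.80 for Hoxc4, -1.54 for Hoxb9, -1.44 for Hoxd10, -1.43 for Hoxc10, -1.34 for Hoxc6, -1.20 for Hoxd3, -1.14 for Hoxa4, -0.97 for Hoxa2, -0.90 for Hoxb3 and -0.89 for Hoxb4. Their cofactor and retinoid genes gave -1.43 for Crabp1, -1.15 for Meis1, -1.01 for Rarb and 0.81 for Cyp26a1.

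Among muscle genes it was -2.69 for Myog, -2.33 for Actc1, -2.01 for Myh3, -1.86 for Myl4, -1.71 for Tnnt2, -1.52 for Myl1, -1.42 for Mylpf, -1.34 for Tnnc1 and -1.57 for Tnnt1. Adipocyte and connective tissue genes gave -2.04 for Adipoq, -0.83 for Lpl, -1.50 for Aspn and -1.39 for Col8a2, and Flt1 gave 1.09.

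Basement membrane and parietal endoderm genes gave 2.95 for Srgn, 2.80 for Lama1, 2.35 for Col4a2, 1.99 for Col4a1, 1.98 for Tinagl1, 1.58 for Lamb1, 1.44 for Lamc1, 1.13 for Sparc, 2.08 for Ctsh and 1.17 for Pth1r. For Srgn, Lama1, Col4a2, Col4a1 and Tinagl1 the menin-null mean of mESCs lay below the wild-type mean. None of these mESC differences was called. Endoderm factors gave 1.84 for Gata4, 1.70 for Sox17, 1.21 for Sox7, 1.08 for Cited1, 0.94 for Foxa2 and -1.0 for Eomes, and the visceral endoderm genes -2.47 for Ttr and 1.02 for Cubn. Epithelial genes gave 1.71 for Krt18, 1.60 for Krt8, 1.47 for Fxyd3, 1.31 for Krt19, 1.27 for Cldn6 and 0.68 for Cldn7. For Krt19 the difference was 0.42 in PILECs and -0.88 in mESCs. Of the 22 epithelial genes measured, 6 were called lower and 0 higher in menin-null mESCs.

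Genes of the CCN and IGF families and their lists gave 3.50 for Ccn2, 3.21 for Igfbp1, 1.72 for F3, 0.77 for Ccn1, 0.90 for Igf2r, -1.28 for Ccn3 and -1.05 for Igfbpl1. Of the other leading genes, the rises gave 2.91 for S100g, 2.44 for Cdhr1, 2.24 for Pga5, 1.81 for Serpina3n and 1.38 for Hpcal4, and the falls -1.90 for Nap1l5, -1.69 for Nxf3 and -1.65 for Skor1.

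Regional factors of the nervous system gave -1.85 for Zic4, -1.55 for Pou3f4, -1.19 for Dbx1, -1.19 for Ebf1, -1.38 for En2, -1.24 for Lhx2 and -0.80 for Zic1. Neuronal, glial, guidance and islet list genes gave 1.42 for Bcas1, 1.15 for Gfap, 1.04 for Epha5, 0.82 for Cnp, 0.78 for Unc5d, 0.75 for Clu, 0.73 for Onecut1, 0.55 for Gpr17, -0.69 for Tubb3 and -1.22 for Robo2.

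Signalling genes gave -1.85 for Bmp4, -1.65 for Rspo1, -1.35 for Rspo3, -1.33 for Cdon, -1.21 for Wnt8b, -1.13 for Id1, -0.97 for Il17rd, -0.77 for Smad6, -0.66 for Spry1, -0.75 for Sfrp2, 1.71 for Fgfbp1 and 0.71 for Ifitm3. Pluripotency and oncofetal genes gave -1.05 for Zfp42, -1.04 for Dppa5a, -1.01 for Nanog, -0.87 for L1td1 and -0.69 for Igf2bp1, and the germline gene Rhox5 1.29. Proliferation and p53 target genes gave -0.71 for Ccnb2, -0.70 for Sesn1, -0.70 for Cdc6, -0.69 for Gins1, -0.62 for Ttk and -0.57 for Kif20a. Metabolic and stress genes gave 1.52 for Epas1, 1.07 for Hspa1a, -1.11 for Cth, -0.84 for Adm, -0.74 for Stard4, -0.70 for Higd1a, -0.68 for Sdf2l1 and -0.59 for Asns.

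Imprinted genes gave -1.29 for Slc38a4, 0.97 for Magel2 and 0.72 for Blcap. Meg3 gave 3.03, from a difference of -2.97 in mESCs and 0.06 in PILECs, and Dlk1 gave 1.58, from -1.49 and 0.09. The causes of these differences were not tested.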

How the results depend on the processing

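The direction of the called named genes changed under 1 of the alternatives run: with probe sets that may bind several transcripts (suffix s, x or a) left out, Tnnt2 read 0.14, Hoxa10 0.19, Fabp4 0.20 and Psmd13 0.079. The counts of calls moved more, and the counts at the study's threshold stayed within 1.5 times. The 804 falls became 1776 with a variance trend, 266 without moderation and 1332 over genes at 7 or more, and 100 to 1047 with single arrays left out. The 412 rises became 90 without moderation and 43 to 575 with single arrays left out. The 280 called list members became 91 without moderation and 83 to 329 with single arrays left out. For the difference between cell types, 557 genes became 1442 with a variance trend, 47 without moderation and 66 to 800 with single arrays left out. Fits without moderation or with fewer arrays had fewer degrees of freedom. A fit to the PILEC arrays alone called 644 falls and 386 rises. Replicate numbers were shared only as numbers: deviations of same-numbered PILEC arrays from their group means correlated at -0.23, and of mESC arrays at -0.28. With the replicate number as a block, 205 genes fell and 134 rose, 145 list members were called, and 84 genes differed between cell types. With the crossed pairing, chosen after seeing the data, 842 fell and 493 rose. The number of arrays limits precision, and under a level of 7 the background does.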
